A study of Mus musculus with 9 samples.

Results

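The Notch receptors, ligands and target genes were followed in mouse primary renal tubular epithelial cells (TECs), in 9 RNA sequencing libraries. The genes were 10, taken by name from the 31167 genes of the deposited table: the receptors Notch1, Notch2 and Notch3, the ligands Jag1, Jag2, Dll1 and Dll4, and the targets Hes1, Hey1 and Heyl. All 10 were present, each in a single row, and 9 passed the minimum of 0.5 FPKM (sequenced fragments corrected for exon length and library depth) as a mean over the libraries. Heyl did not and was not tested.

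Cells came from C57BL/6 kidney and formed 3 groups of 3 libraries. Sham cells were untreated. H/R cells were kept in glucose-free medium at 1.0% oxygen for 6 h and then in complete medium for 18 h of reoxygenation, a model of ischemia and reperfusion in culture. EGR1OV cells were transfected with a plasmid that expresses the transcription factor Egr1 from a cytomegalovirus promoter. No group with an empty vector was analysed here, so plasmid delivery and Egr1 cannot be told apart in EGR1OV. The sources used here do not say whether the 3 libraries of a group came from separate animals or cultures, so p-values measure only the spread between these libraries.

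Notch receptors are cell surface proteins that are activated by ligands of the Jagged and Delta-like families on a neighbouring cell. Binding leads to cleavage by an ADAM sheddase and then by gamma-secretase, which frees the intracellular domain. This domain enters the nucleus, binds RBPJ together with a Mastermind protein, and switches on repressor genes of the Hes and Hey families. In the kidney the pathway is known for the patterning of the nephron in development, where Notch2 is the main receptor, and for being active in injured tubules.

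Depth was 16183617 to 18384022 reads per library. Egr1, the gene on the plasmid, was at 6.09 to 6.91 FPKM in Sham, 7.48 to 8.57 FPKM in H/R and 40.1 to 45.7 FPKM in EGR1OV. General epithelial markers were high in Sham, with Krt8 at 1014 FPKM and Epcam at 76.2 FPKM. Of the segment markers, Umod (thick ascending limb) was at 0 in all 9 libraries and Slc34a1 (proximal tubule) was at most at 0.0362 FPKM. Slc12a1, Slc12a3 and Calb1, further tubular markers, were at most at 0.157 FPKM in any library. Other tubular markers were higher in the Sham libraries, with Lrp2 at 3.51 to 3.67 FPKM and Aqp1 at 1.23 to 1.43 FPKM. Cubn was at 0.503 to 0.572 FPKM in Sham. In 4 libraries the short RNA Gm23935 was the highest gene, but it held at most 0.124% of reads in any library.

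Jag1 dominated the ligands and Notch2 the receptors in every library. In Sham, Jag1 stood at 162 ± 3.65 FPKM (SD, n = 3), rank 206 of 18266 protein-coding genes, and made up 97.0% of the summed FPKM of the 4 ligands. Notch2 stood at 17.9 ± 0.264 FPKM (SD, n = 3) and made up 79.7% of the summed FPKM of the 3 receptors. Levels per length in Sham ran in the order Jag1, Hes1, Notch2, Notch3, Dll1, Notch1, Jag2, Dll4, Hey1 and Heyl. The ranges of neighbours overlapped for Notch3 with Dll1 and for Dll4 with Hey1, so these pairs were not ordered beyond their spread. In EGR1OV, Notch2 lay above Hes1, and Notch1 overlapped Notch3.

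**Figure D1:**
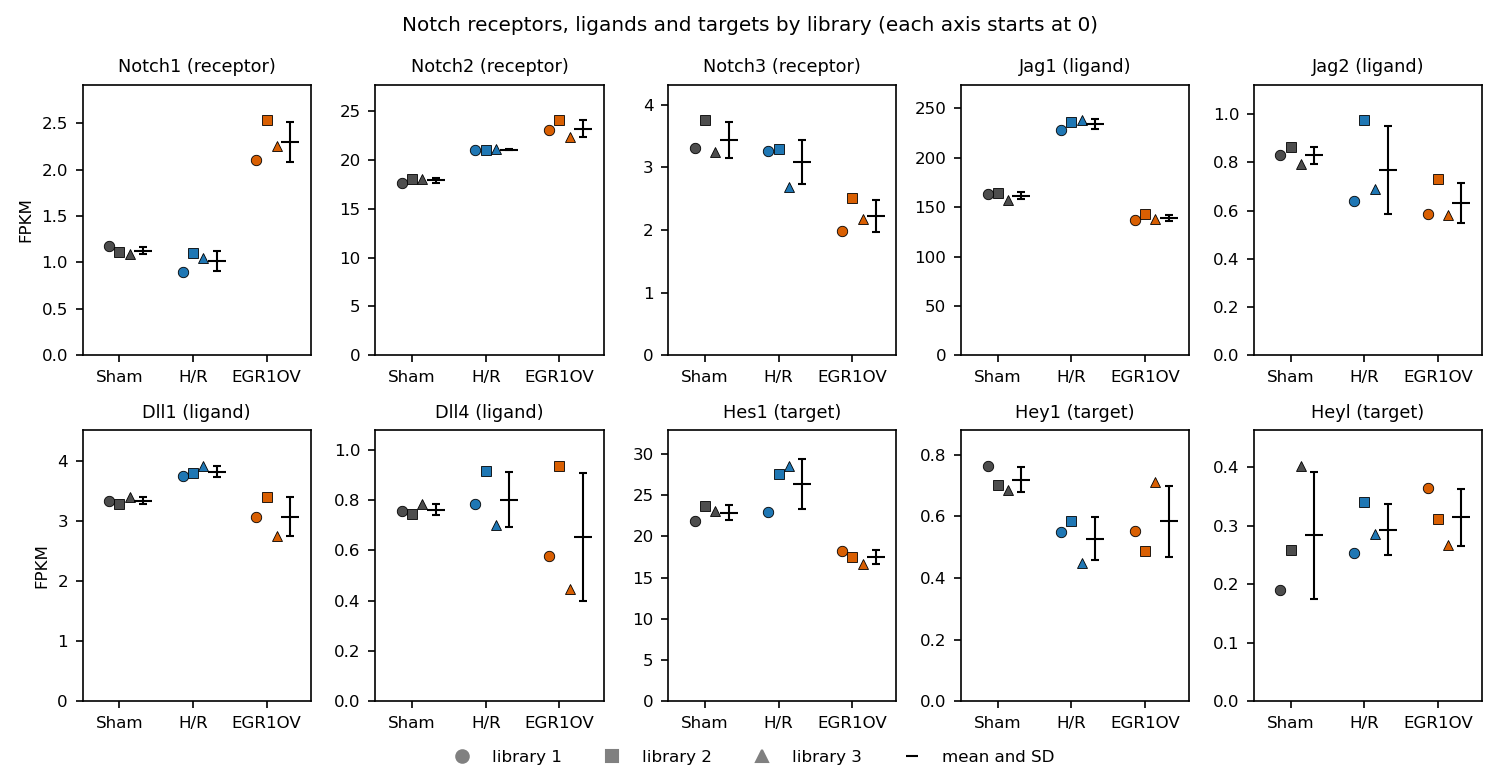
FPKM of each gene in the 9 libraries, by group, with the mean and SD (n = 3) beside the points; each vertical axis starts at 0 and has its own range. Notch1 stands high in the 3 EGR1OV libraries, Jag1 in the 3 H/R libraries, and Hes1 and Notch3 are lowest in EGR1OV.

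EGR1OV was first set against Sham, to see what accompanies the Egr1 plasmid. Notch1 rose and Notch3 fell, while the most abundant members, Jag1, Hes1 and Notch2, moved by less than the threshold of 1.3-fold on the log2(FPKM + 1) scale. A gene was called at a limma adjusted p under 0.05 and at least 1.3-fold. Of the 9 tested members 1 was called higher and 1 lower, which is 22.2%, against 16.4% of all 13985 genes tested (9.87% higher and 6.51% lower). By adjusted p alone 5 of 9 passed, against 45.9% of all genes. No member changed at least 2-fold on the log2(FPKM + 1) scale, against 3.46% of all genes. The median change of the 9 members was -0.12 on the log2(FPKM + 1) scale, beside 0.02 for all genes tested.

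Notch1 (ENSMUSG00000026923), the receptor best known from T cell development, lies on chromosome 2 from 26457903 to 26516663 (minus strand, positions as in the table). Its level was 1.18, 1.12 and 1.09 FPKM in the Sham libraries and 2.11, 2.54 and 2.25 FPKM in the EGR1OV libraries. The groups did not overlap, and the means were 1.13 ± 0.0419 and 2.30 ± 0.218 FPKM (SD, n = 3 each), a ratio of 2.04. On log2(FPKM + 1) values limma gave a change of +0.63 (SE 0.0702, adjusted p 7.64e-05), a scale that understates the change of genes at low levels. These values rest on 257 to 277 reads per Sham library and 498 to 590 reads per EGR1OV library. The antisense gene 0610009E02Rik overlaps 7.5% of the exonic length of Notch1 and was at most at 0.407 FPKM. Whether counting used the strand is not given in the sources used here.

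Notch3 (ENSMUSG00000038146), a receptor typical of vascular smooth muscle and pericytes, lies on chromosome 17 from 32120820 to 32166880 (minus strand). It was at 3.30, 3.76 and 3.24 FPKM in Sham and at 1.99, 2.50 and 2.17 FPKM in EGR1OV, again without overlap. Its mean in EGR1OV was 0.647 times that in Sham, a log2(FPKM + 1) change of -0.46 (SE 0.0842, adjusted p 0.0017 by limma). Markers of mural cells moved with it: 4 of 7 tested genes of that list were called lower, and the list's summed level was 3139 to 3255 FPKM in Sham, 2872 to 3083 FPKM in H/R and 1281 to 1373 FPKM in EGR1OV, most of it Acta2. The genes called lower were Acta2, Mcam, Myh11 and Tagln. Of the other genes of the list, Rgs5, Kcnj8 and Abcc9 were each under 0.3 FPKM on average in every group, whereas Pdgfrb stood at 4.20 FPKM in Sham and 3.81 FPKM in EGR1OV, Des at 21.1 and 18.2 FPKM, and Cspg4 at 4.84 and 6.57 FPKM. None of these 3 was called in EGR1OV, and Cspg4 was called higher after H/R, at 7.17 FPKM. In bulk samples fewer cells of a type and less RNA per cell cannot be told apart, and the part of other cells in the level of Notch3 was not tested.

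Notch2, which lies on chromosome 3 from 98013527 to 98150361 (plus strand), was at 17.6, 18.1 and 18.1 FPKM in Sham and at 23.1, 24.1 and 22.4 FPKM in EGR1OV. Every EGR1OV library lay above every Sham library. The change of +0.35 on the log2(FPKM + 1) scale (limma, SE 0.0314, adjusted p 1.67e-05) was just under the threshold of 1.3-fold. With Notch1 and Notch2 both higher and Notch3 lower in level, the receptor mix shifted. Notch1 made up 5.02% ± 0.257 of the summed receptor FPKM in Sham and 8.28% ± 0.492 in EGR1OV, whereas Notch3 made up 14.4% to 16.4% in Sham and 7.32% to 8.58% in EGR1OV (n = 3 each; SD for Notch1). The summed receptor level was 22.5 ± 0.433 FPKM in Sham, 25.2 ± 0.261 FPKM in H/R and 27.7 ± 1.26 FPKM in EGR1OV (SD, n = 3 each).

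**Figure D2:**
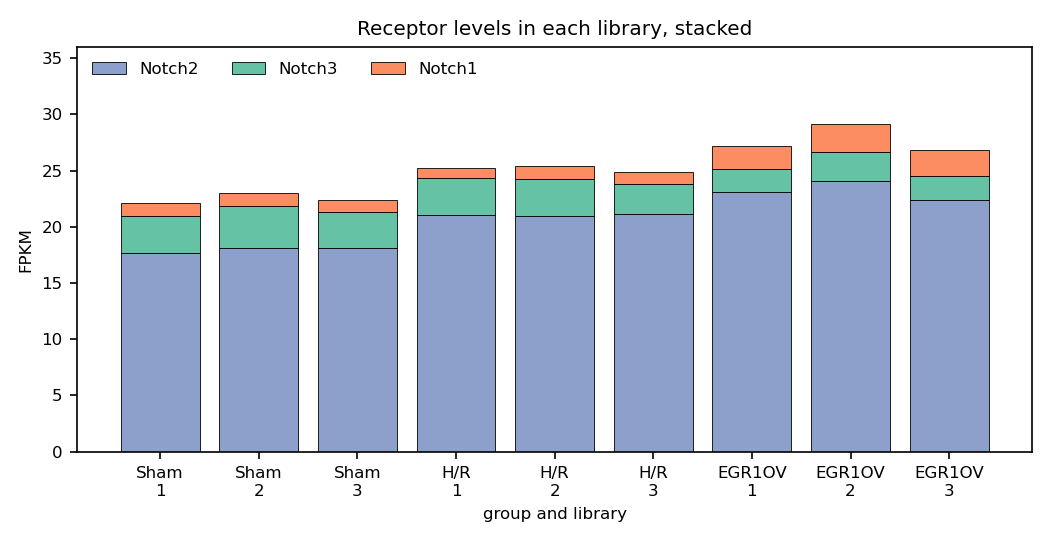
FPKM of Notch2, Notch3 and Notch1, stacked, in each of the 9 libraries; the axis starts at 0. Notch2 is the largest part of every bar, and the Notch1 part is widest in the 3 EGR1OV libraries, where it is 7.74% to 8.70% of the bar.

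Among the ligands none was called in EGR1OV. Jag1 (ENSMUSG00000027276), the Jagged ligand mutated in Alagille syndrome, lies on chromosome 2 from 137081456 to 137116644 (minus strand). It was at 163, 164 and 157 FPKM in Sham and at 137, 143 and 138 FPKM in EGR1OV. The groups did not overlap, but the change of -0.22 on the log2(FPKM + 1) scale (limma, SE 0.028, adjusted p 0.000205) was smaller than 1.3-fold. Jag2 went from 0.829 ± 0.0366 to 0.632 ± 0.0839 FPKM, Dll1 from 3.35 ± 0.0565 to 3.08 ± 0.324 FPKM and Dll4, an endothelial ligand, from 0.763 ± 0.0214 to 0.654 ± 0.254 FPKM (SD, n = 3 each). Their limma adjusted p-values were 0.162, 0.228 and 0.479. Voom on reads recovered from the FPKM values called Jag2 lower (-0.40 on its log2 scale, adjusted p 0.0491). Dll4 varied most among the EGR1OV libraries, at 0.578, 0.937 and 0.447 FPKM, on 29 to 59 reads. The endothelial markers had a summed level of 12.6 to 12.8 FPKM over 10 genes in Sham and 9.35 to 9.83 FPKM in EGR1OV. In EGR1OV 1 of their 7 tested genes was called lower against Sham. Single genes of that list lay on both sides of Dll4 in Sham, with Cdh5 at 3.41 FPKM and Cldn5 at 0.0286 FPKM. The part of endothelial cells in the level of Dll4 was not tested.

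Of the targets, Hes1 (ENSMUSG00000022528), a repressor that is the classic readout of Notch activity, was the only one at a high level. It lies on chromosome 16 from 30064384 to 30067796 (plus strand). Its level was 21.9, 23.6 and 23.0 FPKM in Sham and 18.3, 17.5 and 16.7 FPKM in EGR1OV. All EGR1OV values lay below all Sham values. The change of -0.37 on the log2(FPKM + 1) scale (limma, SE 0.0735, adjusted p 0.00287) was just short of 1.3-fold on that scale, with a 95% confidence interval from -0.53 to -0.20, and the ratio of the mean FPKM was 0.766. It was past the threshold in 6 of 18 alternatives, among them quantile normalization (-0.47), median-ratio scaling (-0.39), and the fits without Sham replicate 1 or without EGR1OV replicate 1 (-0.40 each). Hey1 and Heyl, related repressors best known from heart and vessels, were close to the detection limit. Hey1 was at 0.718 ± 0.0407 FPKM in Sham and 0.583 ± 0.114 FPKM in EGR1OV (SD, n = 3 each, limma adjusted p 0.263), on 26 to 41 reads per library over all groups. Heyl lay between 0.190 and 0.403 FPKM over the 9 libraries, on 16 to 34 reads. Summed over 3 libraries it had 73 reads in Sham (95% exact Poisson interval 57.2 to 91.8), 79 in H/R (62.5 to 98.5) and 80 in EGR1OV (63.4 to 99.6), and the intervals, which cover counting error only, overlap widely.

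H/R was set against Sham to follow the response to low oxygen in glucose-free medium and then to reoxygenation in complete medium. Oxygen, glucose and the change of medium cannot be told apart in this comparison. Both contrasts with Sham use the same 3 Sham libraries. Jag1 rose, and it was the only member called at the threshold of 1.2-fold used for this comparison. That is 11.1% of the 9 tested members, against 4.25% of all genes (1.6% higher and 2.65% lower). By adjusted p alone 2 members passed, Jag1 and Notch2, against 11.7% of all genes, and no member changed at least 2-fold on the log2(FPKM + 1) scale, against 0.0787% of all genes. The median change of the members was 0.03 on the log2(FPKM + 1) scale, beside -0.03 for all genes tested.

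Jag1 was at 228, 236 and 238 FPKM in the H/R libraries, on 21518 to 25259 reads, and each lay far above the Sham values of 157 to 164 FPKM. The mean was 234 ± 5.31 FPKM (SD, n = 3), 1.45 times the Sham mean, with a log2(FPKM + 1) change of +0.53 (SE 0.028, adjusted p 3.68e-05 by limma). Over 18 alternatives the change was between 0.51 and 0.57 on their log2 scales, and Jag1 stayed called in all of them. Notch2 was at 21.1 ± 0.0798 FPKM (SD, n = 3), and each of its H/R libraries lay above all Sham libraries. Its change of +0.22 on the log2(FPKM + 1) scale (limma, SE 0.0314, adjusted p 0.00377) was under 1.2-fold.

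Hes1 was uneven after H/R. Its values were 23.0, 27.5 and 28.6 FPKM, so that replicate 1 lay inside the Sham range and the others above it. The change of +0.19 on the log2(FPKM + 1) scale (SE 0.0735) was not past the threshold, with a limma adjusted p of 0.126, and without H/R replicate 1 it was +0.28 with an adjusted p of 0.0139. Dll1 was at 3.76, 3.80 and 3.93 FPKM, above the 3.29 to 3.40 FPKM of Sham, with a change of +0.15 on the log2(FPKM + 1) scale (limma adjusted p 0.131). The antisense gene A930024N18Rik overlaps 20.5% of the exonic length of Dll1 and was at most at 0.261 FPKM. Hey1 was at 0.549, 0.583 and 0.449 FPKM, below the 0.686 to 0.764 FPKM of Sham, with a limma adjusted p of 0.208. Notch1, Notch3, Jag2 and Dll4 overlapped their Sham ranges, and their limma adjusted p-values were 0.394 to 0.894.

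**Figure D3:**
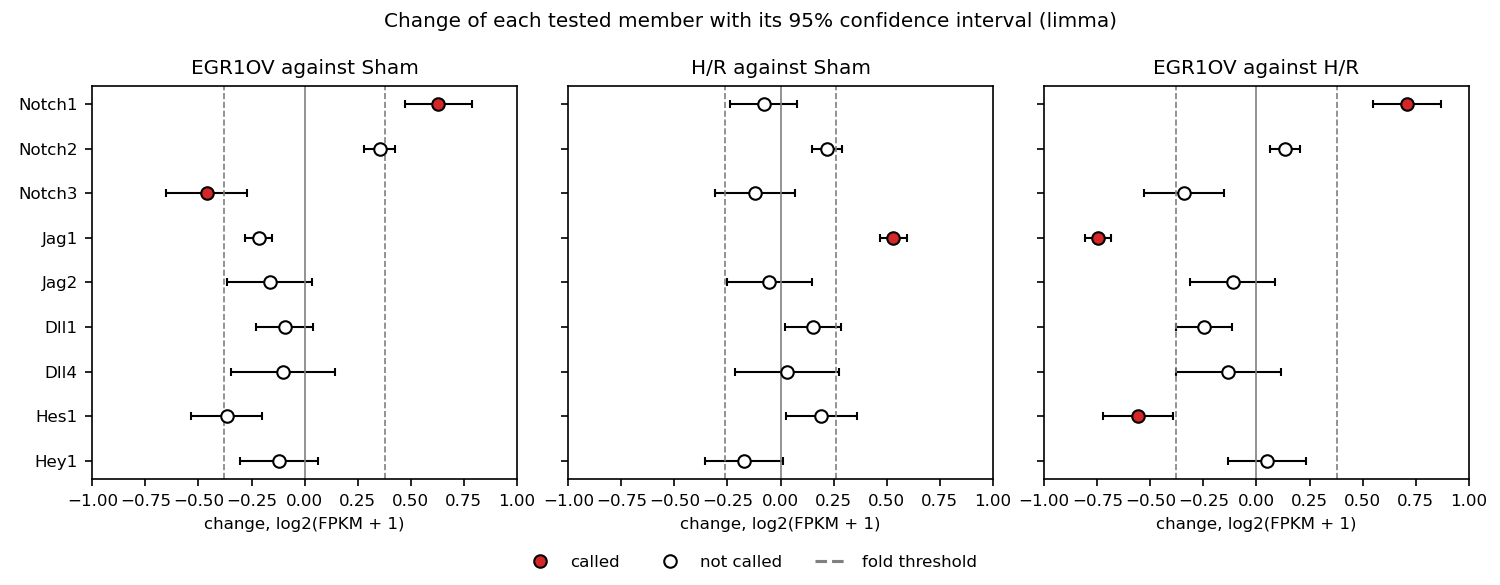
Change of the 9 tested genes on the log2(FPKM + 1) scale in the 3 comparisons, with 95% confidence intervals from limma; dashed lines mark the fold threshold and red points are called genes. Jag1 is called in H/R against Sham (+0.53), Notch1 (+0.63) and Notch3 (-0.46) in EGR1OV against Sham, and Jag1, Notch1 and Hes1 in EGR1OV against H/R.

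EGR1OV was set directly against H/R to test whether the treated groups differed. They differed in Notch1, Jag1 and Hes1. This is 33.3% of the 9 tested members, 1 higher and 2 lower in EGR1OV, against 18.9% of all genes at 1.3-fold (11.9% higher and 6.94% lower). By adjusted p alone 6 of 9 members passed, against 51% of all genes, and none passed 2-fold on the log2(FPKM + 1) scale, against 3.5% of all genes. The members had a median difference of -0.13 on the log2(FPKM + 1) scale, and all genes one of 0.05.

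The level of Jag1 in EGR1OV, 139 ± 3.05 FPKM (SD, n = 3), was 0.594 times that in H/R, a difference of -0.75 on the log2(FPKM + 1) scale (limma, SE 0.028, adjusted p 3.41e-08). Notch1 was 2.26 times higher in EGR1OV than the 1.02 ± 0.105 FPKM (SD, n = 3) of H/R, a difference of +0.71 on the same scale (limma, SE 0.0702, adjusted p 3.05e-05). Hes1 was at 17.5 ± 0.807 FPKM in EGR1OV and 26.3 ± 2.98 FPKM in H/R (SD, n = 3 each), a difference of -0.56 on the same scale (limma, SE 0.0735, adjusted p 0.000192). The values of all 3 genes were separate between these groups. Notch3 differed by -0.34 and Dll1 by -0.25 on the same scale (limma adjusted p 0.0078 and 0.00676), both short of 1.3-fold on that scale. For Notch3 the ratio of the mean FPKM was 0.721, and it passed the threshold in 6 of 17 alternatives, among them a pseudocount of 0.1 (-0.46), voom on recovered reads (-0.47), and the fits without H/R replicate 3 (-0.41) and without EGR1OV replicate 2 (-0.40).

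Since the plasmid encodes a DNA-binding factor, the 250 bases before the RefSeq start (GRCm38.p6) of the members were searched on both strands for the Egr1 sites GCGGGGGCG and GCGTGGGCG and for TGGGAA, the core of the RBPJ site. These motifs differ in their letters and no matches overlapped. RefSeq promoters matched 7 of the 10 genes, with 8 entries, and Hes1, Hey1 and Heyl had none. GCGGGGGCG was found before Notch3, 74 to 66 bases from the start, and before Dll4, 117 to 109 bases from the start. Of 32851 promoters of this length, 2.57% hold it. GCGTGGGCG, which 0.536% of promoters hold, and TGGGAA, which 21.6% hold, were found in none of the 8. The promoters of the called genes are printed 5′ to 3′ on the strand of the gene, up to the first exonic base of GENCODE M21, with the Egr1 site in capitals.
Notch3, chr17:32166891-32167140, minus strand: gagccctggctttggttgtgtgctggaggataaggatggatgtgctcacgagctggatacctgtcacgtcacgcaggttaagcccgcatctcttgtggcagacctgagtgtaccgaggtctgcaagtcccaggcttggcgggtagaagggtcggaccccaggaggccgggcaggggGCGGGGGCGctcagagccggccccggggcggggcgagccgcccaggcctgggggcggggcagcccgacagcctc
Notch1, chr2:26503825-26504072, minus strand: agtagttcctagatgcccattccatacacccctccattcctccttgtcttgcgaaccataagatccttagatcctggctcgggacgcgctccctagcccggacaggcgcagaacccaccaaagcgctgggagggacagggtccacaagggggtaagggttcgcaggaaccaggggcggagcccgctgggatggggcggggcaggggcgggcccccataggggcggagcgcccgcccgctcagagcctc
Jag1, chr2:137116645-137116770, minus strand: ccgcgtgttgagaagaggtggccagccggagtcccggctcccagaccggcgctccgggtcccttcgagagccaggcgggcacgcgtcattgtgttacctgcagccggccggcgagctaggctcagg
The Notch1 window lies inside the span that the table gives for Notch1, whose first annotated base is further upstream. Of the 2 members with the Egr1 site, Notch3 was called lower in EGR1OV and Dll4 was not called. A match of letters is a description and does not show binding.

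The other genes of the pathway were read from a list of 48, of which 36 were tested. In EGR1OV 3 were called higher and 2 lower against Sham, which is 13.9% of those tested, close to the 16.4% of all genes. Their median change was 0.10 on the log2(FPKM + 1) scale. The 3 called higher were all of the nuclear complex, in which 11 of 11 listed genes were tested. Of all genes 9.87% were called higher, and whether the calls are concentrated in this role was not tested. Kat2a and Kat2b, histone acetyltransferases that act as coactivators for many factors, went from 14.4 ± 0.177 to 22.3 ± 0.48 FPKM and from 8.76 ± 0.249 to 13.5 ± 0.341 FPKM (SD, n = 3 each). The changes were +0.60 and +0.57 on the log2(FPKM + 1) scale (limma adjusted p 1.72e-06 and 4.26e-06). Snw1, a splicing factor that also binds the Notch intracellular domain, changed by +0.41 on the same scale (limma adjusted p 0.000579).

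Lfng and Hey2 were the genes called lower. Lfng, the Fringe enzyme that adds sugars to Notch receptors and alters their choice of ligand, went from 16.6 ± 0.548 FPKM in Sham to 12.3 ± 0.457 FPKM in EGR1OV (SD, n = 3 each), a log2(FPKM + 1) change of -0.40 (SE 0.0411, adjusted p 4.25e-05 by limma). Hey2, a Notch target of the same family as Hey1, was at 1.05 ± 0.135 FPKM in Sham and 0.572 ± 0.0902 FPKM in EGR1OV (SD, n = 3 each), a change of -0.38 on the same scale (limma adjusted p 0.00305). Against H/R 7 of the 36 genes were called, 5 higher and 2 lower in EGR1OV, with Lfng at -0.60 and Hey2 at -0.56 on the same scale (limma adjusted p 2.46e-06 and 0.000289), and Kat2a at +0.71 and Kat2b at +0.70. Their 19.4% stands beside 18.9% of all genes.

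Of the gamma-secretase subunits 6 of 7 were tested and none was called in any comparison. Ncstn, the substrate receptor of gamma-secretase, went from 44.2 ± 1.12 to 53.4 ± 1.69 FPKM in EGR1OV (SD, n = 3 each), a change under 1.3-fold. The sheddase Adam10 was at 35.3 ± 0.585 FPKM in Sham, 37.0 ± 1.54 FPKM in H/R and 37.1 ± 1.61 FPKM in EGR1OV (SD, n = 3 each). Dtx4, a Deltex ubiquitin ligase, had a mean of 22.4 FPKM over the 9 libraries and was not called.

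After H/R none of the 36 genes was called by limma, against 4.25% of all genes, a small share for a list of this size. Voom on recovered reads also called 0 of the 36. Their median change was -0.03 on the log2(FPKM + 1) scale, beside -0.03 for all genes. By adjusted p alone 2 passed, named here after their values were seen. Rbpj, the DNA-binding partner of the intracellular domain, was at 7.15, 7.15 and 7.04 FPKM in Sham and 8.47, 8.12 and 8.61 FPKM in H/R, a change of +0.21 on the log2(FPKM + 1) scale (limma adjusted p 0.016). It was also higher in EGR1OV, at 8.80 ± 0.505 FPKM (SD, n = 3), a change of +0.27 on the same scale (limma adjusted p 0.000748) that was short of 1.3-fold. Lfng changed by +0.20 after H/R (limma adjusted p 0.0173). Both changes after H/R lie under 1.2-fold.

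**Figure D4:**
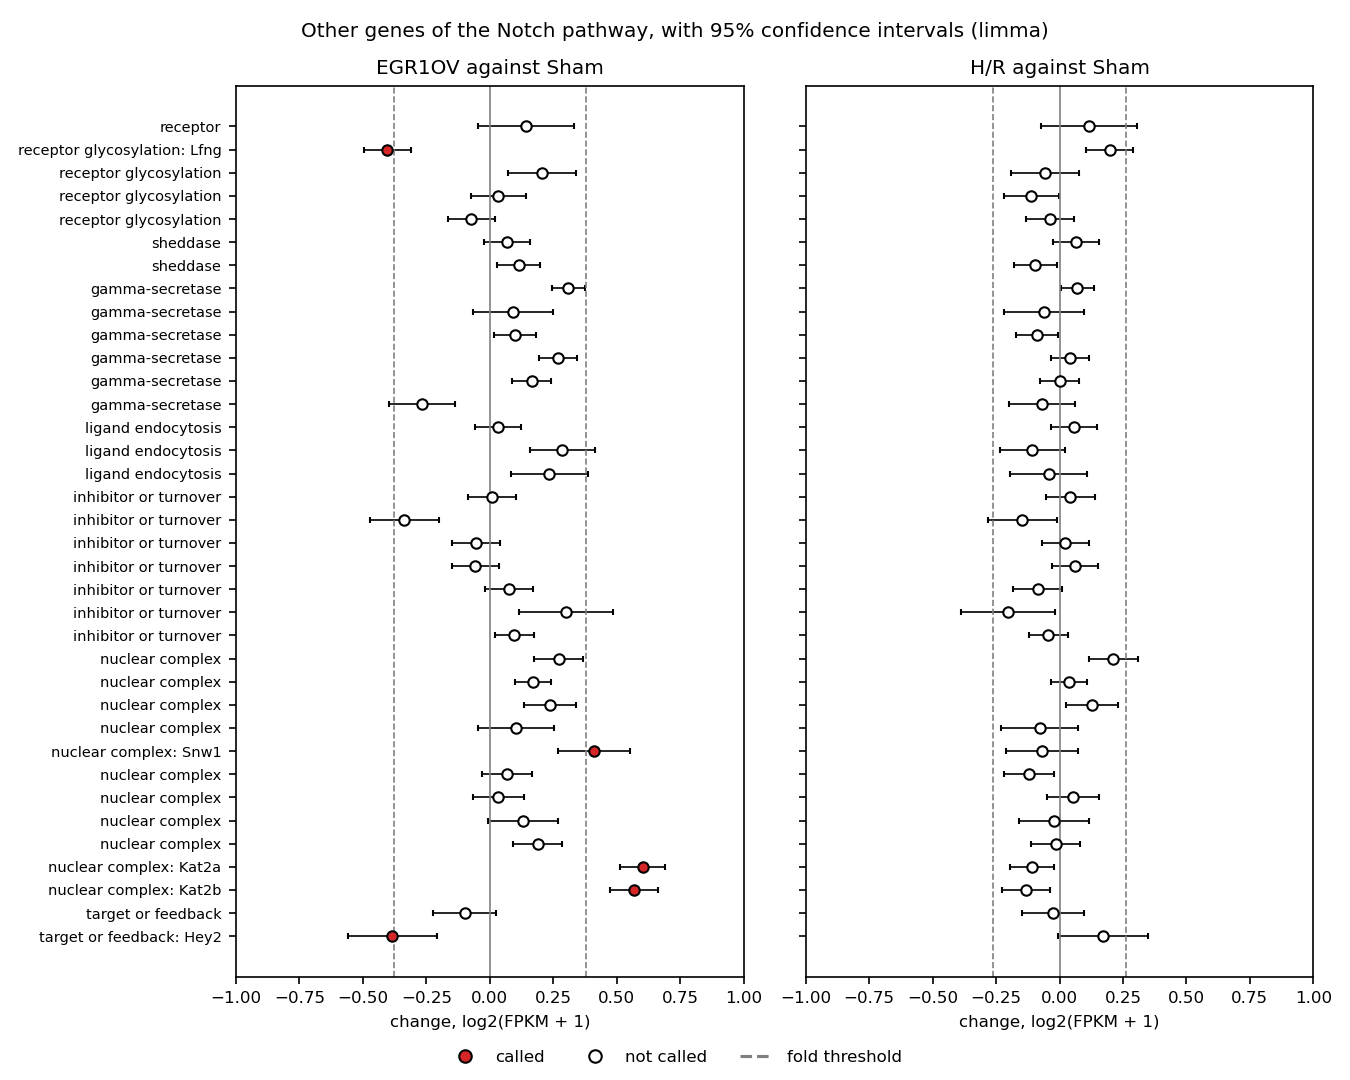
Change of the 36 other tested pathway genes on the log2(FPKM + 1) scale, 1 gene a line, sorted by role and with only the called genes named, in EGR1OV and in H/R against Sham, with 95% confidence intervals from limma, fold thresholds as dashed lines and called genes in red. Kat2a, Kat2b and Snw1 are called higher and Lfng and Hey2 lower in EGR1OV, and none is called after H/R.

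For the member with the largest change in each comparison with Sham, the genes with the most similar pattern were sought among 7172 protein-coding genes at a mean of at least 5 FPKM. Likeness was the root mean square difference of centred log2(FPKM + 1) values over the 9 libraries. Nearest to Notch1 were Atp13a1 (0.0341), Fgfr1 (0.0433) and Kat2a (0.0468). This scale understates the change of genes at low levels such as Notch1, and genes under 5 FPKM were not searched. In FPKM the EGR1OV mean of Notch1 was 2.04 times its Sham mean, and that of Kat2a 1.55 times. The likeness to Notch1 thus holds on the log2(FPKM + 1) scale only. Fgfr1, a fibroblast growth factor receptor, was at 11.1 ± 0.225 FPKM in Sham, 11.0 ± 0.339 FPKM in H/R and 17.8 ± 1.03 FPKM in EGR1OV (SD, n = 3 each). Among those near to Jag1 were Cyp51 (0.0629), an enzyme of cholesterol synthesis, and Scd2 (0.0795), a fatty acid desaturase. Cyp51 was at 14.7 ± 0.433 FPKM in Sham, 21.4 ± 0.835 FPKM in H/R and 13.0 ± 0.696 FPKM in EGR1OV (SD, n = 3 each), and Scd2 was likewise highest in H/R and lowest in EGR1OV. These distances rest on 9 libraries that share 3 groups and are descriptions.

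**Figure D5:**
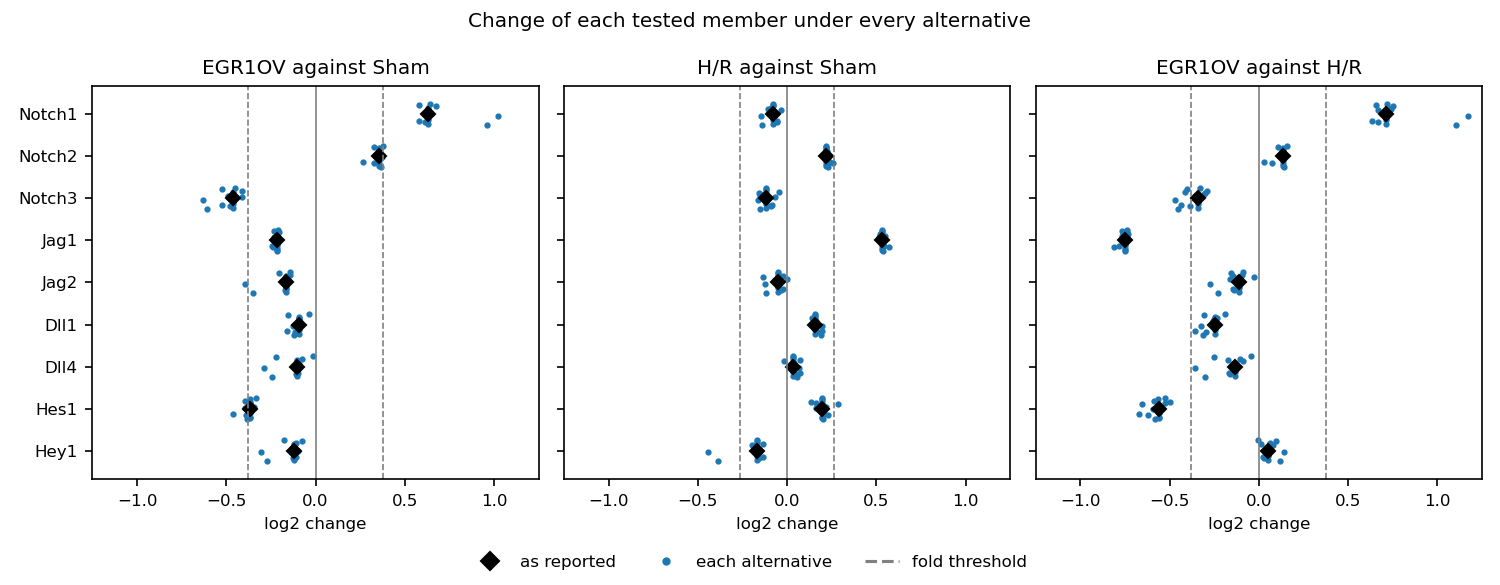
Log2 change of the 9 tested genes in the 3 comparisons as reported (black diamonds) and under each alternative (blue points, 17 or 18 for each gene), with the fold thresholds dashed. Jag1 after H/R stays between 0.51 and 0.57, whereas Hes1 in EGR1OV against Sham, from -0.47 to -0.33, lies on both sides of its threshold.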

How the data were processed

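The authors deposited 1 table of FPKM values per gene in which each library has its own column. The submitters' processing notes name Bowtie2 2.2.3, HISAT2 2.1.0, TopHat2 and the build mm9, with no role or order. The counter and the annotation are not given in the sources used here. Gene positions in the table equalled GENCODE M21 (GRCm38) for 94.6% of genes and are printed as in the table. The table holds FPKM, so depth was recovered from the steps of low values with M21 exon lengths, and 94.0% of 162885 low and middling values were whole within 0.02 reads. Notch3 did not give whole reads.

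Groups and replicate numbers came from the sample titles. All 9 libraries entered a limma fit (version 3.58.1 under R 4.3.3, eBayes with a mean trend) on log2(FPKM + 1) over the 13985 genes whose mean reached 0.5 FPKM. Tests were two-sided, and p-values were adjusted by Benjamini-Hochberg over all these genes. Fold thresholds were 1.3 for both comparisons of EGR1OV and 1.2 for H/R against Sham; those against Sham are the study's. With 3 against 3 libraries, an exact permutation test cannot go below 0.1. Replicate pairs exceeded sampling noise, at a chi-square of 2.07 to 4.06 per degree of freedom, and none was merged. The code was tested on simulated data.

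The members and lists were chosen with earlier results of these data known. Genes named from the wider list were up to 4 called genes with the largest change per comparison and those above 20 FPKM on average. A few genes that these rules or the likeness search picked are not reported here. Alternatives were a pseudocount of 0.1, no filter or a minimum of 5 FPKM, scaling by median ratio or quantiles, a replicate block, no trend, only the groups compared, voom on recovered reads, each library left out, and other fold thresholds. Python 3.11.15 was used for tables and figures (matplotlib 3.10.9).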

Additional observations from a re-analysis of the deposited data

How the results depend on the processing

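Of the members' changes under the alternatives, 452 kept their direction and their side of the threshold, 14 passed it where they had not, and 2 changed sign. The 2 were values near 0 that were never called: with each library left out in turn, Dll4 in H/R against Sham went from -0.016 to 0.070, and Hey1 in EGR1OV against H/R from -0.0057 to 0.095. In EGR1OV against Sham, where 2 members were called, the count was 0 of 3 tested at a mean of at least 5 FPKM, which removes Notch1 and Notch3, 4 with voom on recovered reads (Hes1 and Jag2 added), 5 with no fold threshold and 0 at 2-fold. After H/R the count of 1 was 2 with no fold threshold, 0 at 2-fold, and 1 to 2 with each library left out, where leaving out H/R replicate 1 added Hes1. For EGR1OV against H/R the count of 3 was 6 with no fold threshold and 0 at 2-fold. In the wider list the counts of 5, 0 and 7 became 21, 2 and 24 with no fold threshold and 0, 0 and 0 at 2-fold. The share of called genes that were higher, over all genes, depended on scaling: 60.3% as deposited, 55.8% with median-ratio and 45.9% with quantile scaling in EGR1OV against Sham, 37.7%, 57.9% and 56.5% after H/R, and 63.2%, 52.1% and 42.5% for EGR1OV against H/R. Whether the replicate numbers pair the libraries cannot be settled from 3 libraries per group. Same-numbered libraries deviated together in some pairs and oppositely in others (correlation -0.195 to 0.263). Libraries with different numbers did so too (-0.222 to 0.179). With the replicate block 2, 1 and 3 members and 5, 0 and 7 wider genes were called, as without it. Depth limits Hey1, Heyl and Dll4, which rest on at most 65 reads per library.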

Other observations

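The balance of the most abundant ligand and receptor differed between the groups. Jag1 over Notch2, as a ratio of FPKM, was highest in H/R, at 11.1 ± 0.248, against 9.01 ± 0.284 for Sham and 6.00 ± 0.139 for EGR1OV (SD, n = 3 each), and the 3 ranges were separate. Notch1 over Notch3 was highest in EGR1OV, at 1.04 ± 0.0223, against 0.330 ± 0.03 for Sham and 0.333 ± 0.0579 for H/R. Hes1 over Jag1 was highest in Sham, at 0.141 ± 0.00668, against 0.112 ± 0.0103 for H/R and 0.126 ± 0.00668 for EGR1OV. These ratios use the same values as the changes of the single genes and were not tested apart from them. They were chosen after the values were seen.

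Leukocyte markers moved with EGR1OV as well. All 7 tested genes of that list were called lower against Sham, and its summed level was 140 to 144 FPKM in Sham, 116 to 123 FPKM in H/R and 22.1 to 26.6 FPKM in EGR1OV. Of the tubular list 10 genes were tested, with 1 called higher (Epcam) and 4 lower (Krt8, Krt18, Lrp2 and Aqp1) in EGR1OV. Fibroblast markers were called higher in 1 of 3 tested genes in EGR1OV and in 2 of 3 after H/R. Of the 2 podocyte markers tested, 1 was called lower after H/R, and their median change in EGR1OV was 0.18 on the log2(FPKM + 1) scale. The part of these cells in the levels of the Notch genes was not tested.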
